A study of Mus musculus with 6 samples.

Results

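The regions described here lie deep inside very long genes. ATAC-seq marks open chromatin by inserting sequencing adapters where DNA is accessible to the transposase Tn5, and the authors called peaks of these insertions in each of 6 libraries. Peaks of the 6 lists that shared 1 bp or more were merged into 89410 regions, of which 87268 lay on chromosomes 1 to 19. A region was a member when it lay wholly inside a protein-coding RefSeq gene span (GRCm38) of over 300 kb and at least 10 kb from both of its ends. Of 20661 protein-coding genes on these chromosomes, 532 were that long, with a median span of 451 kb and the longest, Ptprd, at 2271 kb. They held 6177 members, 7.08% of the autosomal regions and 6.91% of all regions. Because some spans overlap, 49 members lay in 2 or more long genes, and the members made 6258 pairs of a region and a gene.

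The 6 libraries came from an immortalized mouse osteoblast line that carries floxed Fam20c alleles (OB Fam20c f/f, 3 libraries, labelled as control) and from Fam20c-deficient cells (OB Fam20c KO, 3 libraries), for which a lentivirus carrying Cre recombinase was put into that line. Fam20c encodes a kinase of the secretory pathway that phosphorylates matrix proteins of bone and teeth. All cells were grown in αMEM with fetal bovine serum. Both groups therefore descend from 1 line. The sources used here do not say whether the f/f cells received a control virus or whether the KO cells are 1 clone, so that the deletion, the infection and the choice of a clone cannot be told apart. The labels do not say either whether the replicates were separate cultures, so that p-values measure only the spread between these libraries. No reads were counted here, and the groups were compared by which regions had a peak. Where a library has no peak at a region, the signal there was under the threshold of the peak caller, which does not show closed chromatin.

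Very long genes are mostly intron. Many encode proteins of neurons, adhesion or the cytoskeleton, and the introns of those that are active in a cell type often hold enhancers and internal start sites, from which shorter transcripts begin. Genes of this length that are silent in a cell can lie in closed chromatin over their whole span. Some, such as Fhit, are known as common fragile sites, which break when replication is disturbed.

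OB Fam20c KO replicate 3 stood apart from the other 5 libraries before any comparison. Its list held 32958 peaks, against 62781 to 74797 in the others. It had a peak in 1518 members, while the other KO libraries had 3856 and 4085 and the f/f libraries had 3824, 3829 and 4794. The comparisons of the groups below are therefore also given without it, for single genes as a log2 difference. The lists held a region within 1 kb of an end of 6 or 7 of 11 osteoblast genes (7 in the other 5 libraries and 6 in KO replicate 3), among them Runx2, Sp7, Col1a1 and Sparc, and of none of Ibsp, Bglap, Phex and Dmp1. Of 14 marker genes of other tissues, 3 to 7 had such a region. The target itself, Fam20c, is shorter than 300 kb, holds no member, and had a region near an end in all 6 libraries, which does not check the deletion.

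Some members cover an internal start, and those of 5 genes are shown because they carry the contrast between the groups, or its absence within a changed gene. Of these, 3 were covered in all 3 f/f libraries and no KO library, in Fgf12, an intracellular fibroblast growth factor homologue, Patj, a scaffold of cell polarity complexes, and Pde1a, a calmodulin-dependent phosphodiesterase. That in Grip1, a scaffold protein with PDZ domains, was the only one covered in all 3 KO libraries and no f/f library, and its region also covers the start of the antisense RNA Gm51815. The last, in Pde4b, was covered in all 6. Of the 70 members at a start of the long gene itself, 3 were in all 3 f/f libraries and no KO library. The reverse held for 1, and another 3 were in KO replicates 1 and 2 only. Over all 6177 members, these patterns made up 4.57%, 0.243% and 3.90%. The sequences are RefSeq start windows of GRCm38, 300 bases each, 5′ to 3′ on the strand given, and capitals mark matches, on either strand, to TGANTCA (AP-1), CAGCTG (E-box), ACCACA (RUNX), GGAATG (TEAD) and AGGNGGC (part of the CTCF motif).
Fgf12, chr16:28564446-28564745, minus strand: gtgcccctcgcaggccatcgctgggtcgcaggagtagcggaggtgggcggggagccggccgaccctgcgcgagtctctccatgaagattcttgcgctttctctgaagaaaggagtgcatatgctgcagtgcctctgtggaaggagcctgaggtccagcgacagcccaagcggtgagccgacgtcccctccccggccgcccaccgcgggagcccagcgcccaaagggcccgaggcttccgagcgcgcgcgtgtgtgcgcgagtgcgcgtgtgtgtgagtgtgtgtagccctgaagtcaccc
Patj, chr4:98546384-98546683, plus strand: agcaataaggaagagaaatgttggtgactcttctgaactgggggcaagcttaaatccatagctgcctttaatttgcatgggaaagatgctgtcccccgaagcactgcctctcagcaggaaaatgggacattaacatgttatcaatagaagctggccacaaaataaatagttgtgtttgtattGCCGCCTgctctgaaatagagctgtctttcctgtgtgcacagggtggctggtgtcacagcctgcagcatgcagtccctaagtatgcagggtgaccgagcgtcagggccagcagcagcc
Pde1a, chr2:80038853-80039152, minus strand: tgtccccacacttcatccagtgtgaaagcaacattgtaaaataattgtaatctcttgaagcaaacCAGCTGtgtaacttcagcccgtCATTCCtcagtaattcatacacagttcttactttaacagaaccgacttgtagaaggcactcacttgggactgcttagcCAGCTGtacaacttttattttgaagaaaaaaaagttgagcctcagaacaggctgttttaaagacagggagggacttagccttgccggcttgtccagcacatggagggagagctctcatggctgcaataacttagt
Grip1, chr10:119819139-119819438, plus strand: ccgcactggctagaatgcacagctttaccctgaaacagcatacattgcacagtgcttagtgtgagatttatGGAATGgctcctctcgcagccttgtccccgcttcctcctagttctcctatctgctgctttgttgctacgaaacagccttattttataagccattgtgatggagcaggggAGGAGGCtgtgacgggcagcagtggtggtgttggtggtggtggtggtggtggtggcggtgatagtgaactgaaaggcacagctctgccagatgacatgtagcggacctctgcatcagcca
Pde4b, chr4:102569810-102570109, plus strand: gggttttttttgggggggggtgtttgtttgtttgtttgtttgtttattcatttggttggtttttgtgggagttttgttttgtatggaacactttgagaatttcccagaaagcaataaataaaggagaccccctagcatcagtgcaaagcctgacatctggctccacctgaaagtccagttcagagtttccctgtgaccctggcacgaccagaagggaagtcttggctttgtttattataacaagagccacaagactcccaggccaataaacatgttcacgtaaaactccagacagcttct

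The Fgf12 window holds no match to any of the 5 motifs and has a GC content of 67.7%. That of Patj holds 1 match to the part of the CTCF motif, that of Pde1a 2 to the E-box and 1 to the TEAD motif, and that of Grip1 1 to the TEAD motif and 1 to the part of the CTCF motif. That of Pde4b holds none. Over all 31396 autosomal start windows, AP-1 letters were in 7.84%, the E-box in 16.3%, RUNX in 16.7%, TEAD in 14.6% and the part of the CTCF motif in 29.4%. A match is a description of the letters and not a binding site.

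Members became rarer as genes became longer. In all 6 libraries, the number of deep regions with a peak per Mb fell at each step from genes of 100 to 300 kb to genes of over 1 Mb. The mean over the libraries was 28.0 ± 7.99 per Mb (SD, n = 6) in genes of 100 to 300 kb, 18.8 ± 5.59 in genes of 300 to 500 kb, 11.6 ± 3.66 in genes of 500 kb to 1 Mb and 4.35 ± 1.39 in genes of over 1 Mb. Each step down was larger than the spread of the differences between libraries (exact sign-flip permutation test over the 6 libraries, two-sided, p = 0.0312 for each of the 3 steps, the smallest p that 6 libraries allow, and 0.0312 after Benjamini-Hochberg adjustment over 4 such tests). The libraries share a cell line, so that this test speaks of these cells only. The number of members per gene hardly followed the length among the long genes themselves (Spearman's rho = 0.0494 across 532 genes, which are not independent replicates).

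**Figure D1:**
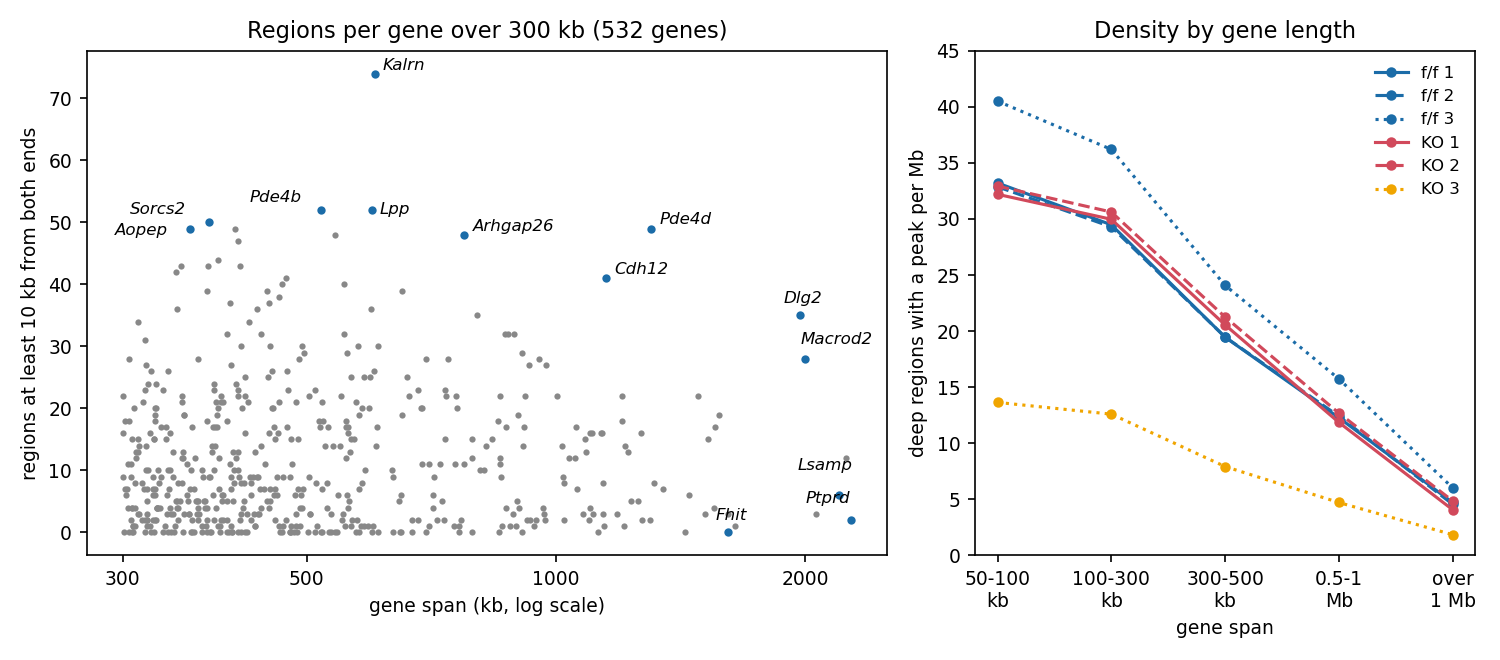
Left, number of regions at least 10 kb from both ends (y axis) against the gene span in kb (x axis, log scale) for each of the 532 genes over 300 kb, with 13 genes named in blue. Right, deep regions with a peak per Mb (y axis) in 5 classes of gene span (x axis), 1 line per library. Numbers run from 0 to 74 (Kalrn), and from 100 kb upward the density falls with length in every library, KO replicate 3 lying lowest in each class.

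The members were unevenly shared among the genes. The median was 8 members per gene (quartiles 3 and 18), and the 118 genes with 20 or more held 3410 members, 55.2% of all. Neighbouring members of a gene were separated by a median of 12.2 kb (quartiles 4.64 and 29.7 kb). They lay along the whole gene, with 9.24% of them in the first 10% of the span and 12.6% in the last 10% in the direction of transcription, over the 405 genes whose strand is in the start-site table. The members were narrower than the other autosomal regions (median width 550 bp against 647 bp).

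The gene with the most members was Kalrn, which encodes the guanine nucleotide exchange factor kalirin and had 74 members in 604 kb on chromosome 16. Lpp, a LIM-domain protein of focal adhesions, and Pde4b, a phosphodiesterase that degrades cAMP, followed with 52 each. Sorcs2, a sorting receptor, had 50. Aopep, an aminopeptidase, Pde4d, a second cAMP phosphodiesterase gene, and Ttc28 had 49 each. Arhgap26, a GTPase-activating protein, and the transcription factor gene Nfia had 48, Oxr1 had 47 and Stard13, another GTPase-activating protein, had 44. Atxn1, Gse1 and Pdzd2 shared the next place with 43 members each. These numbers count the lists of all libraries together. Oxr1 and Pdzd2 lie on chromosome 15, where 45.3% of the members were in 1 list only, against 22.1% elsewhere.

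Per Mb of the stretch at least 10 kb from both ends, Aopep was the densest of the genes with 10 or more members, with 144 members per Mb against a median of 15.8 over the 532 genes. Sorcs2 (138), Gse1 (129), Bach2 (128), Kalrn (127), Ttc28 (126), Oxr1 (119), Pdzd2 (119), Stard13 (119), Mad1l1 (116), Ror1 (109) and Atxn1 (109) followed, each value in members per Mb. Bach2 encodes a transcriptional repressor of the basic leucine zipper class, Mad1l1 a protein of the spindle checkpoint and Ror1 a receptor of the Wnt ligand Wnt5a. The most crowded 100 kb were in Aopep, where 27 members lay between 63216478 and 63314411 on chromosome 13. In that stretch, the f/f libraries had peaks at 13, 18 and 22 of the members and the KO libraries at 15, 16 and 7.

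A total of 59 long genes, 11.1%, held no member in any list. The 10 longest of them were Fhit (1612 kb), Gpc5, a glypican (1433 kb), Dab1, an adaptor of reelin signalling (1125 kb), Nlgn1, a synaptic adhesion molecule (911 kb), Marchf1, a ubiquitin ligase (855 kb), Lrrtm4, a synaptic adhesion molecule (791 kb), the glutamate receptor genes Grid1 (763 kb) and Grik2 (696 kb), the GABA receptor gene Gabrg3 (671 kb) and Tmem132d (650 kb). Of the 59 genes, 41 had no region anywhere in their span, so that none of the 6 lists held a peak over all of Fhit or Nlgn1, and 18 had regions only within or across the outer 10 kb, as Gpc5 had at 1 end. Long empty stretches also occurred in genes with members. Ptprd, a receptor phosphatase, had 2 members and 1761 kb without any region, and Csmd1 had 1 member and 1614 kb without one. In 65 genes the longest stretch without a region was over 500 kb.

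Genes whose own start carried a region held more members inside. Start-site windows of RefSeq (300 bases around a transcription start) were given for 405 of the 532 long genes. The starts include those inside the span. In 61 genes a member itself covered such a start, so that part of this difference was fixed in advance. In the 185 genes with a start covered in all 6 lists, the median density was 29.4 members per Mb (quartiles 15.2 and 52.1), and 2 of them held no member. In the 161 genes without a region at any start it was 6.48 members per Mb (quartiles 1.57 and 17.9), and 33 held no member. The 59 genes with a start in 1 to 5 lists lay between, at 13.2 members per Mb. The first class was also shorter, with a median span of 413 kb against 522 kb in the class without a region at a start.

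The 5 gene lists, which may share genes, were described by their counts. The 43 long genes of transcription and chromatin had the highest median density, 33.4 members per Mb, with Nfia (48 members), Bach2 (42), Msi2 (39) and Hivep3 (37) at the top. The 93 genes of neural adhesion and the synapse had the lowest, 4.53 members per Mb, and 14 of them held none, although Sorcs2 (50), Cdh12 (41), Nav2 (39) and Dlg2 (35) were among the richest. The 41 of Cdh12 count all lists together, and no single library had a peak at more than 15 of them. Genes of growth factor and morphogen signalling (55 genes, 23.3 per Mb), of matrix, adhesion and cytoskeleton (57 genes, 16.5 per Mb) and of fragile sites (23 genes, 14.7 per Mb) lay between these values, beside 15.8 per Mb over all long genes. The largest numbers were those of Pde4b, Pde4d, Ror1 and Cdk14 (30) in the signalling list, of Lpp, Arhgap26, Thsd4 (40) and Dst (32) in the matrix list and of Dlg2, Macrod2 (28), Sdk1 (27) and Magi2 (22) in the fragile-site list. Of the 23 fragile-site genes, 1 held no member, which was Fhit.

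Runx2, the transcription factor that directs osteoblast differentiation, held 23 members in 319 kb on chromosome 17, 77.0 per Mb. The f/f libraries had peaks at 14, 18 and 19 of them and the KO libraries at 13, 13 and 6. The groups do not overlap in these numbers, but the difference scaled to the library was not past the threshold (log2 difference, KO minus f/f, -0.32 ± 0.13 (SE), limma adjusted p = 0.16, and -0.34 without KO replicate 3). Tcf4, a basic helix-loop-helix factor, held 13 members, with peaks at 10, 9 and 12 in f/f and at 8, 9 and 6 in KO (log2 difference -0.17 ± 0.16 (SE), limma adjusted p = 0.58, and -0.24 without KO replicate 3).

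The regions deep inside long genes were found in fewer lists than other regions. All 6 lists held 1328 of the 6177 members (21.5%), against 33.4% of all autosomal regions and 26.2% of the 19934 deep regions of genes of 300 kb or less. In contrast, 1497 members (24.2%) were in 1 list only, against 21.9% of the deep regions of shorter genes and 19.8% of all autosomal regions. A further 1288 members (20.9%) were in every list but that of KO replicate 3.

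Members were also weaker peaks within each list. The standing of a peak is its percentile by −log10 q in its own list, from 0 to 100. It ranks a peak within its list and does not measure strength between lists. The shorter list of KO replicate 3 held few of the regions that stood low elsewhere, so that its standings are not comparable with the others. The median standing of the members was 40.8, 39.3 and 41.5 in the f/f libraries and 40.01, 40.3 and 35.2 in the KO libraries. It was lower than that of the deep regions of shorter genes in 6 of 6 libraries, by a mean of 3.32 ± 0.749 percentile points (SD, n = 6; exact sign-flip permutation test, two-sided, p = 0.0312, the smallest possible, and 0.0312 after adjustment over the 4 tests).

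**Figure D2:**
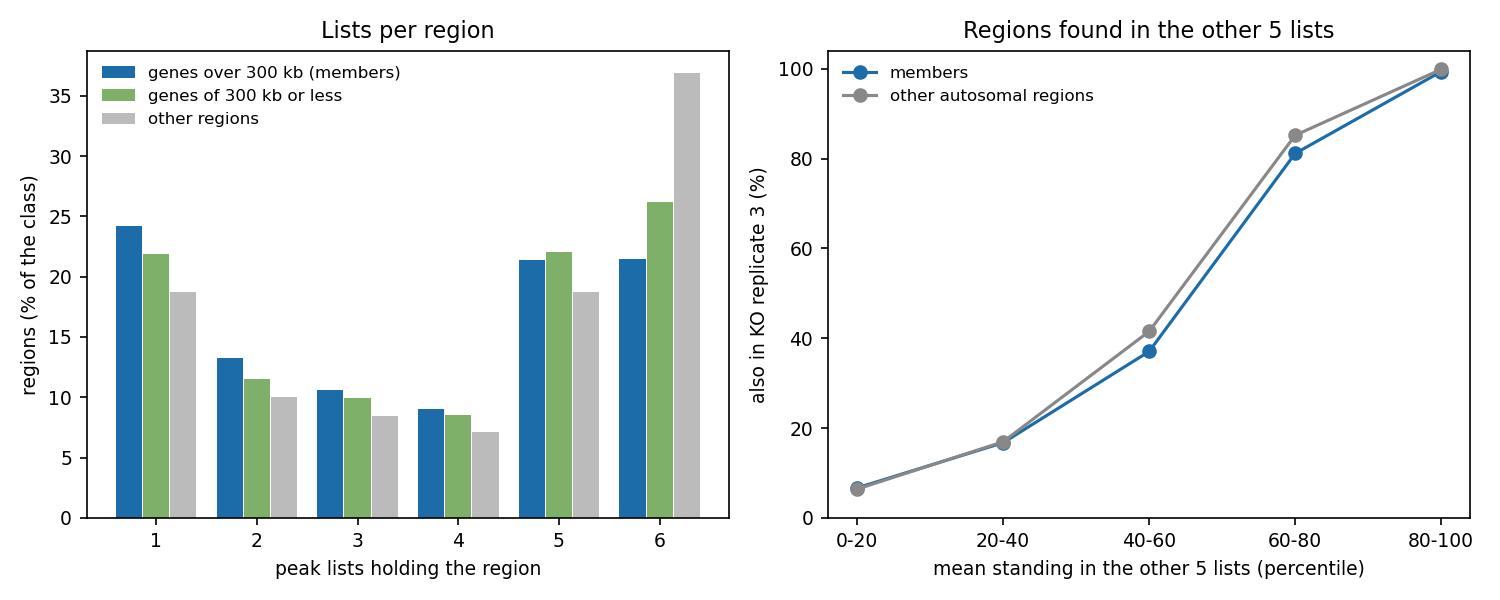
Left, percent of regions (y axis) found in 1 to 6 peak lists (x axis), for the members, the deep regions of shorter genes and all other autosomal regions. Right, among regions found in the other 5 lists, the percent that KO replicate 3 also held (y axis) by mean standing in the other 5 lists (x axis, percentile). Members are found in all 6 lists less often (21.5%), and the share also held by KO replicate 3 rises with standing from 6.67% to 99.4% of members.

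KO replicate 3 held members less often the lower they stood. Of the 2616 members found in all the other 5 lists, it held 50.8%, against 64.2% of the 43258 such regions elsewhere. In the bin of 20 to 40 by mean standing, the shares were 16.7% of 640 members and 16.9% of 7351 other regions, and in the bin of 80 to 100 they were 99.4% of 315 and 99.9% of 12205. In the bins between, members were held less often, by 37.0% against 41.5% at 40 to 60 and by 81.1% against 85.2% at 60 to 80.

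The named members in all 6 lists were strong in every library. The member with the highest mean standing lay in Cmss1 on chromosome 16 (57391120 to 57391676), with a standing of 99.86 to 99.98 over the lists and a peak fold over background, as the authors' caller gave it, of 25.3 to 37.9. The next lay in Mdga2, a gene of a membrane-anchored adhesion protein, on chromosome 12 (67059166 to 67059920, fold 20.9 to 24.8) and in Stard13 on chromosome 5 (151368040 to 151369338, fold 12.1 to 17.6). The Stard13 member covers the start of a long noncoding RNA, 1700028E10Rik.

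Members at internal start sites were found in more lists than the rest. Of the 6177 members, 124 overlapped a RefSeq start window, 70 of them a start of the long gene itself and 57 a start of another gene inside it. All 6 lists held 53.2% of these 124, against 20.8% of the 6053 members without a start. Among the genes that start inside a long host were Timp3, an inhibitor of matrix metalloproteinases, inside Syn3, the imprinted antisense RNA Kcnq1ot1 inside Kcnq1, Filip1l inside Cmss1, Dhrs3 inside Vps13d and Runx2 inside Supt3, each covered in all 6 lists. These names were chosen after their values were seen. Of the 219 windows of starts that long genes have at least 10 kb inside their own span, 73 (33.3%) carried a region, against 44.8% of all 31396 autosomal start windows. The median GC content was 59% in the 43 internal starts covered in all 6 lists and 48% in the 146 without a region.

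The members at the 5 starts printed above differed in standing. In Fgf12, the f/f standings were 27.7, 41.3 and 41.0. In Patj they were 24.6, 16.1 and 40.6, and in Pde1a 27.7, 44.3 and 35.6. The Grip1 region stood at 36.9, 38.4 and 8.50 in the KO libraries. The Pde4b start was high in both groups, with standings of 74.3, 77.2 and 79.7 in f/f and of 70.2, 68.2 and 48.1 in KO. The values of KO replicate 3, 8.50 in Grip1 and 48.1 in Pde4b, are not comparable with the others.

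Of 50 microRNA hairpins deep inside long genes, 6 lay in members. The best covered was Mir199a-2, which lies antisense inside Dnm3 on chromosome 1 (162217814 to 162217923, plus strand). Its region was in all 6 lists at standings of 91.4, 90.9 and 89.6 in f/f and of 90.7, 92.4 and 93.0 in KO, and it also covers the start of Dnm3os, the noncoding RNA that carries this hairpin. The 2 mature sequences are shown because they come from the best covered hairpin, and the seed (bases 2 to 8) is in capitals.
mmu-miR-199a-5p: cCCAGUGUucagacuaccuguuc
mmu-miR-199a-3p: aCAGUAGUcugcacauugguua

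Whether the loss of Fam20c went with more or fewer regions deep inside long genes was asked first over all of them. The f/f libraries had a peak in a mean of 4149 ± 559 members and the KO libraries in 3153 ± 1421 (SD, n = 3 each), and the difference of -996 was smaller than the spread in the KO group (exact permutation test over the 20 assignments of libraries, two-sided, p = 0.6). As a share of each library's autosomal regions, the members made up 6.35%, 6.36% and 6.64% in f/f and 6.36%, 6.62% and 4.87% in KO. The KO mean differed from the f/f mean by -0.503 percentage points (exact permutation test, two-sided, p = 0.5, where 0.1 is the smallest p possible). Without KO replicate 3 it was 0.0359 percentage points, of the opposite sign. With the 32958 highest peaks of each list, the shares were 4.89%, 4.93% and 4.93% in f/f and 4.93%, 5.10% and 4.88% in KO, and the difference was 0.051.

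With all 6 lists, the members found in 1 group only were more numerous for f/f. A peak in 3 of 3 f/f libraries and in 0 of 3 KO libraries was found at 282 members, 4.57%, against 3.78% of all autosomal regions. The reverse was found at 15 members, 0.243%, against 0.173% of all autosomal regions. The count for KO depended on KO replicate 3. When it was left out, 285 members were only in f/f (4.69% of 6075, against 3.86% of all regions) and 256 only in KO (4.21%, against 2.89% of all regions). The rules are then unequal, since KO-only asks for peaks in fewer lists than f/f-only. With all lists cut to the length of the shortest, 99 members were only in f/f (4.13%, against 2.88% of all regions) and 87 only in KO (3.63%, against 2.57%). The f/f-only members were weak peaks, with a median of the mean standing of 26.4, but so were members in general, at 27.1. The median was 63.5 for members in all 6 lists.

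The f/f-only members were concentrated in a few places. Chromosome 4 between 90 and 105 Mb, chromosome 16 between 20 and 40 Mb and chromosome 13 were known from earlier results of these data to hold an excess of f/f-only regions, so that their members are a description only. They held 43, 14 and 35 f/f-only members, 92 of the 282 together, and no KO-only member. In these places 13.8% of the 666 members were f/f-only, against 3.45% of the 5511 members elsewhere. Over all autosomal regions the shares were 11.5% in these places and 3.22% elsewhere. Without KO replicate 3, 13.8% of 665 members there and 3.57% of 5410 elsewhere were f/f-only, and 8 members there were KO-only. Elsewhere 248 members (4.58%) were KO-only, more than the 193 that were f/f-only, under the unequal rules given above. Over all regions elsewhere, 3.29% were f/f-only and 3.02% KO-only. On the stretch of chromosome 4, the f/f libraries had peaks at 105, 115 and 148 of 190 members and the KO libraries at 28, 37 and 9.

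**Figure D3:**
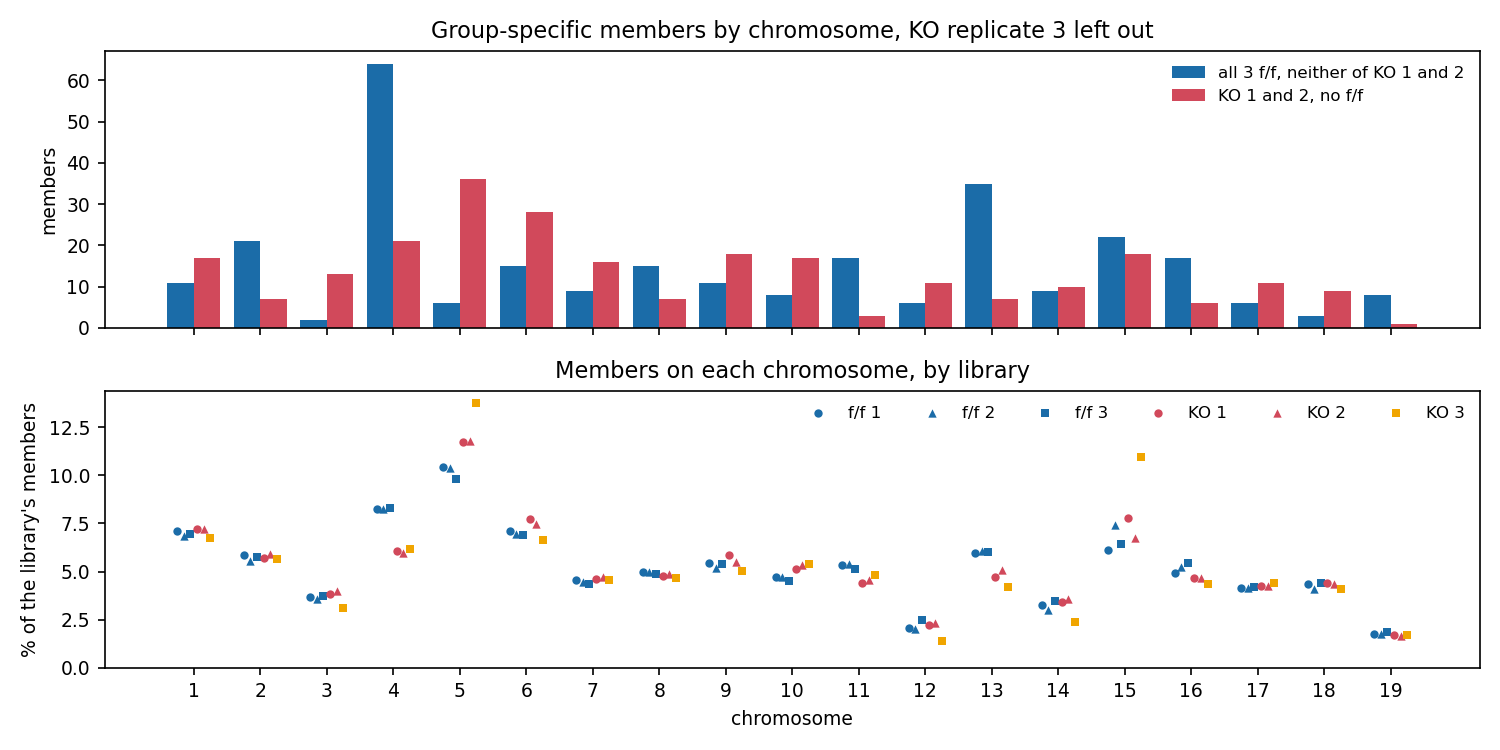
Top, number of members (y axis) that each of the 3 f/f libraries held and neither of KO replicates 1 and 2 (blue), or in both of these KO libraries and in no f/f library (red), on each chromosome (x axis). Bottom, percent of each library's members (y axis) on each chromosome (x axis), 1 symbol per library. Blue bars stand out on chromosomes 4 and 13, red bars on 5 and 6, and KO replicate 3 lies above the other libraries on 5 and 15.

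With KO replicate 3 left out, chromosome 4 had 64 f/f-only and 21 KO-only members, and chromosome 13 had 35 and 7. Chromosome 5 had 6 f/f-only and 36 KO-only members, and chromosome 6 had 15 and 28. In these counts KO-only again asks for peaks in fewer lists than f/f-only. The share of each library's members that lay on chromosome 5 was 10.4%, 10.4% and 9.82% in f/f and 11.7%, 11.8% and 13.8% in KO, and the groups do not overlap. On chromosome 4 it was 8.24%, 8.25% and 8.30% in f/f and 6.07%, 5.97% and 6.19% in KO, likewise without overlap. The groups did not overlap on 8 of the 19 chromosomes, which also include 10, 11, 13, 16, 17 and 19, and without KO replicate 3 on 13. The shares of all autosomal regions did not overlap on 9 of 19, and without KO replicate 3 on 12. For chromosome 4 they were 6.23%, 6.29% and 6.27% in f/f and 5.76%, 5.72% and 5.52% in KO. For chromosome 5 they were 7.35%, 7.59% and 7.43% in f/f and 7.86%, 7.73% and 8.38% in KO, also without overlap. These chromosomes were chosen after their values were seen.

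The strongest f/f-only members lay in Ror1 and Pde4b. They were chr4:100181430-100182479 in Ror1, with standings of 74.5, 72.9 and 79.3 in the f/f libraries, chr4:102351841-102352565 in Pde4b, at 72.4, 70.6 and 77.9, and chr4:100407274-100408239 in Ror1, at 68.3, 70.0 and 76.4. The strongest KO-only member lay in Stard13 (chr5:151379088-151380094), with standings of 59.4, 65.4 and 38.6 in the KO libraries. It was followed by members in Fam189a1 (chr7:65082182-65083326), at 55.3, 58.8 and 18.9, and in Ano2, a chloride channel gene (chr6:125742205-125743095), at 32.6, 51.6 and 32.3. The other 12 KO-only members lay in Pard3b, Cdh23, Grip1, Oxr1, Tmem117, Slc14a2, Bach2, Cdk14, Ppargc1a, Cux1, Fry and Cadm1, with a mean standing of 5.30 to 33.4. The means of KO-only members include KO replicate 3, whose standings are not comparable with the others.

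Genes were then compared by the number of their deep regions that had a peak in each library. The fit (limma with voom weights) ran on the 726 protein-coding genes with 10 or more deep regions, each count scaled to the sum over these genes in its library, and 242 long genes were among them. The other 290 long genes had too few members to be tested. The 10 regions were counted over all 6 lists, so that a gene could pass through regions of 1 group. Pde4b, Ror1 and Fgf12 reached 10 only through regions with a peak in f/f alone. For such genes the filter and the comparison are not independent. In the KO libraries, 20 long genes (8.26% of 242) had fewer regions with a peak and 11 (4.55%) had more, at an adjusted p of 0.05. The background over all 726 genes was 4.41% with fewer and 2.89% with more. The 484 shorter genes gave 2.48% and 2.07%. Without KO replicate 3, the numbers were 16 with fewer and 23 with more, and 16 of the 20 and 10 of the 11 remained past the threshold. Without KO replicate 1 they were 5 and 4, without KO replicate 2 they were 7 and 4, without f/f replicate 1 they were 13 and 5, and without f/f replicate 3 they were 12 and 2. With lists of equal length, the numbers were 6 and 1. Of the 20 genes with fewer regions, 12 lay in the 3 places named above, where 21 of the tested long genes lie, and none of the 11 with more did. The share of 8.26% thus rests mainly on these places, and the background shares above are not split by place.

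Pde4b changed with the smallest adjusted p. Of its 52 members on chromosome 4, the f/f libraries had peaks at 29, 36 and 43 and the KO libraries at 6, 8 and 3. All KO values lie far below all f/f values. Per 1000 deep regions of the tested genes, Pde4b had 4.23 ± 0.474 in f/f and 0.841 ± 0.107 in KO (SD, n = 3 each), a log2 difference of -2.25 ± 0.17 (SE, limma adjusted p = 1.53e-06) and of -2.25 without KO replicate 3. It held 19 of the 282 f/f-only members, the most of any gene.

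The difference in Pde4b was uneven along the gene. The gene has a stretch of 99.1 kb without any region, from 307 to 406 kb after the start of its span, and the split at this stretch was chosen after the values were seen. Upstream of it lay 43 members, with peaks at 23, 29 and 36 in f/f and at 1, 2 and 1 in KO. Downstream lay 9 members, with peaks at 6, 7 and 7 in f/f and at 5, 6 and 2 in KO. The downstream part holds the internal start printed above, which was in all 6 lists, and 2 of the 19 f/f-only members.

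**Figure D4:**
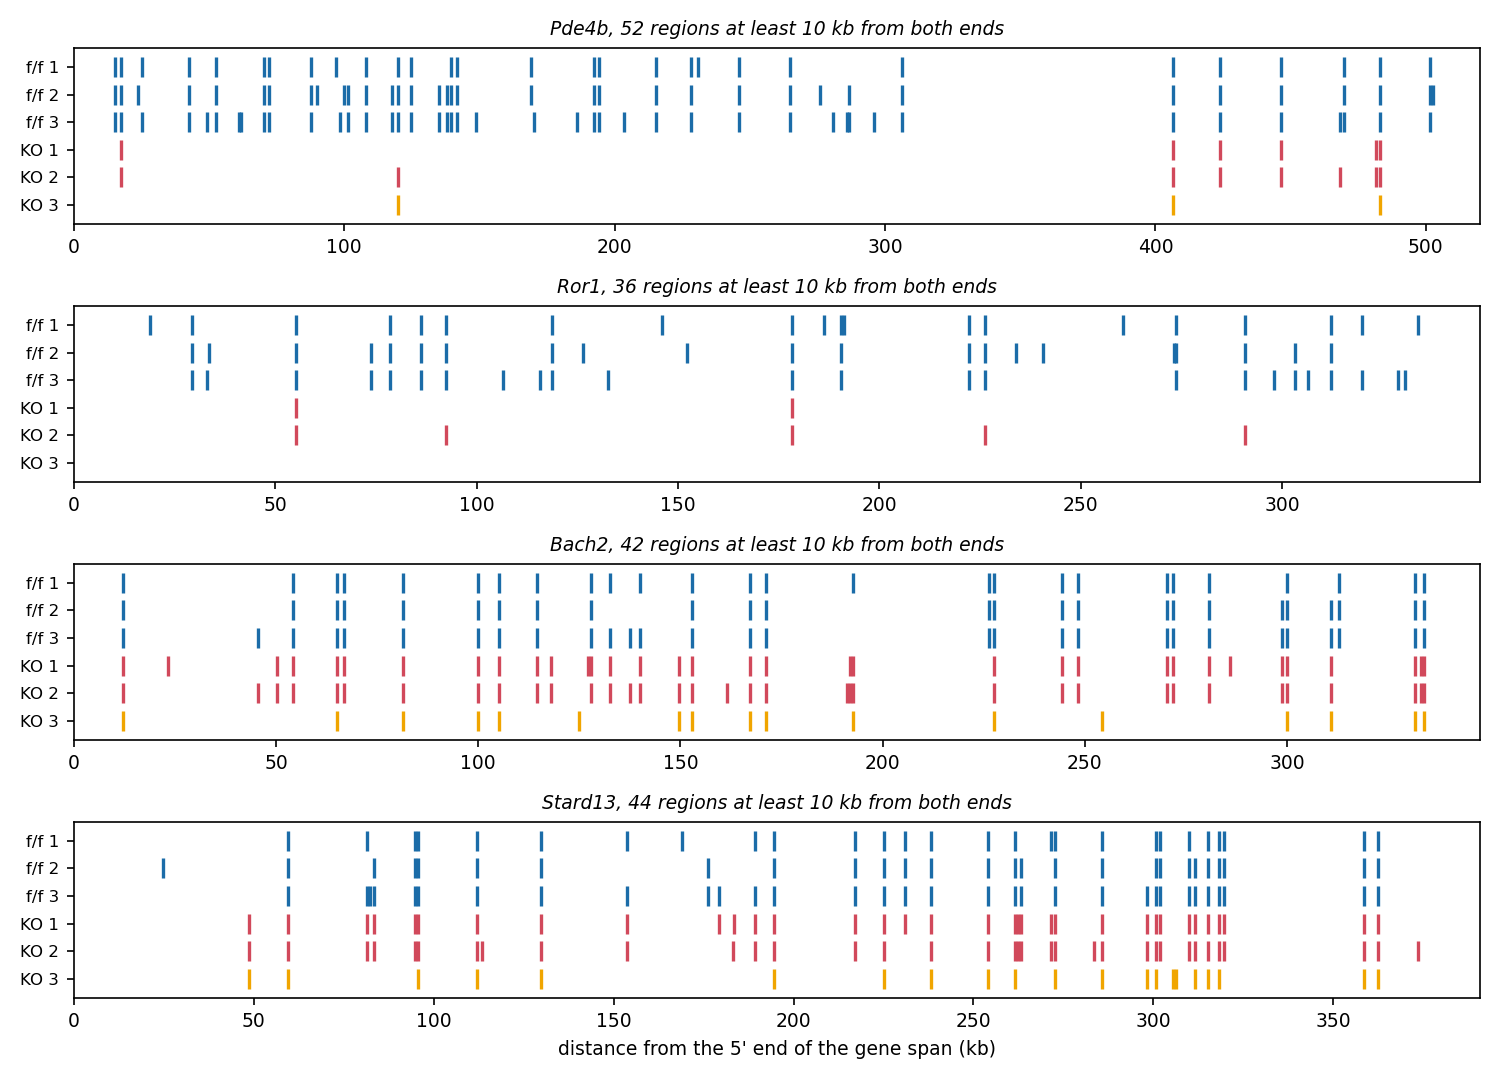
Members of Pde4b, Ror1, Bach2 and Stard13 by their distance in kb from the 5′ end of the gene span (x axis), 1 row per library (y axis) and 1 mark for each member with a peak in that library. In Pde4b the KO rows are nearly empty up to the gap at 307 to 406 kb and hold 5, 6 and 2 of 9 marks beyond it. Ror1 has 2, 5 and 0 marks in the KO rows. The rows of Bach2 and Stard13 are filled in both groups, and both genes were called with more regions in KO. Their log2 differences were 0.43 and 0.38 (limma adjusted p = 0.00487 and 0.0365), and 0.40 and 0.29 without KO replicate 3.

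Ror1 had a larger log2 difference, with a larger error. Its 36 members had peaks at 20, 21 and 24 in f/f and at 2, 5 and 0 in KO, so that the highest KO library lay far below the lowest f/f library. The log2 difference was -2.96 ± 0.47 (SE, limma adjusted p = 0.00182), a value that rests in part on the 0 of KO replicate 3, and without that library it was -2.53 (limma adjusted p = 0.00141). Ror1 held 8 f/f-only members and none in all 6 lists.

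Nfia, whose product belongs to the nuclear factor I family, had peaks at 27, 26 and 36 of 48 members in f/f and at 9, 13 and 4 in KO (log2 difference -1.39 ± 0.14 (SE), limma adjusted p = 4.16e-05, and -1.38 without KO replicate 3). Fggy, a carbohydrate kinase gene, had 16, 19 and 22 of 28 in f/f and 8, 7 and 1 in KO (log2 difference -1.34 ± 0.20 (SE), limma adjusted p = 0.00137, and -1.26 without KO replicate 3). The call for Fggy was lost without KO replicate 1 (log2 difference -1.55, limma adjusted p = 0.0569) and without KO replicate 2 (-1.26, limma adjusted p = 0.117), where the difference was about as large. Both lie on chromosome 4 between 90 and 105 Mb, as do Pde4b and Ror1, and in both the groups do not overlap.

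Outside chromosome 4, Lpp and Pde4d were the named genes with fewer regions. They also lie in the places already known to hold an excess of f/f-only regions. Lpp is in the stretch of chromosome 16 from 20 to 40 Mb, as are Kalrn and Fgf12 below, and Pde4d is on chromosome 13. Lpp on chromosome 16 had peaks at 30, 34 and 47 of 52 members in f/f and at 17, 19 and 10 in KO (log2 difference -0.91 ± 0.12 (SE), limma adjusted p = 0.000537, and -0.99 without KO replicate 3). Pde4d on chromosome 13 had 33, 33 and 43 of 49 in f/f and 21, 26 and 9 in KO (log2 difference -0.61 ± 0.09 (SE), limma adjusted p = 0.00136, and -0.59 without KO replicate 3). Both genes kept members in all 6 lists, 10 in Lpp and 9 in Pde4d. The gene with the most members, Kalrn, was among the 20 as well, with 47, 49 and 65 of 74 in f/f and 34, 38 and 10 in KO (log2 difference -0.62 ± 0.11 (SE), limma adjusted p = 0.00317, and -0.53 without KO replicate 3). So was Fgf12 with 9, 14 and 18 of 20 in f/f and 2, 2 and 0 in KO (log2 difference -2.82 ± 0.67 (SE), limma adjusted p = 0.0226). Without KO replicate 3 the difference was -2.44 and no longer past the threshold (limma adjusted p = 0.0846).

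**Figure D5:**
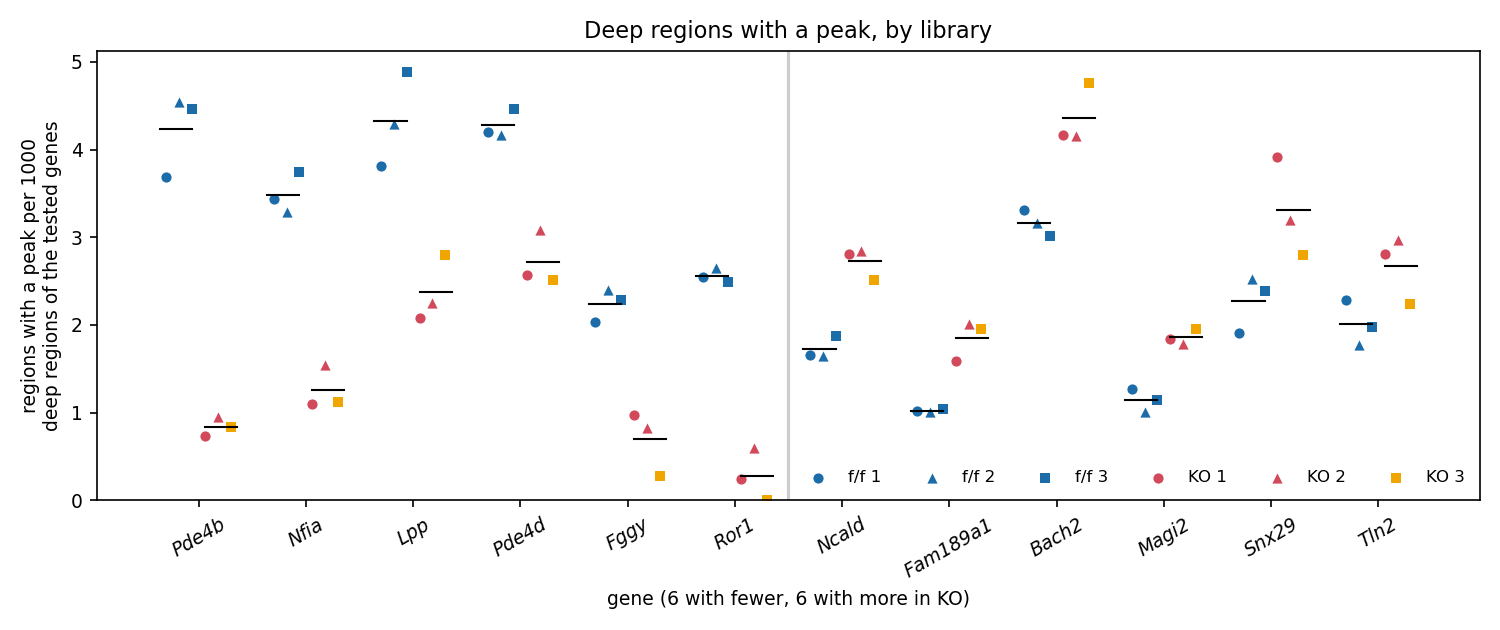
Deep regions with a peak per 1000 deep regions of the 726 tested genes (y axis) for the 6 long genes with the smallest adjusted p in each direction (x axis), 1 symbol per library, with black lines at the means of the 3 f/f and the 3 KO libraries. The groups are apart in the genes with fewer regions in KO, such as Pde4b at 4.23 against 0.841, while in Tln2 KO replicate 3 overlaps the f/f libraries.

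Among the genes with more regions in KO, Ncald had the smallest adjusted p. Ncald, which encodes the calcium sensor neurocalcin delta, had peaks at 13, 13 and 18 of 34 members in f/f and at 23, 24 and 9 in KO. Scaled to the library this was 1.72 ± 0.128 per 1000 in f/f and 2.73 ± 0.181 in KO (SD, n = 3 each; log2 difference 0.67 ± 0.10 (SE), limma adjusted p = 0.00139). Without KO replicate 3 the log2 difference was 0.70. Ncald lies on chromosome 15, which held 7.01%, 7.62% and 7.27% of all autosomal regions in f/f. In KO it held 8.09%, 7.82% and 8.88%, while the shares of members there overlapped between the groups. Whether the Ncald difference goes beyond that of its chromosome was not tested. The call was lost with lists of equal length (0.25, limma adjusted p = 0.557) and with peaks of a −log10 q of 5 or more (0.43, limma adjusted p = 0.122).

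Fam189a1 had 8, 8 and 10 of 18 members in f/f and 13, 17 and 7 in KO (log2 difference 0.81 ± 0.14 (SE), limma adjusted p = 0.00334, and 0.78 without KO replicate 3). Bach2 had 26, 25 and 29 of 42 in f/f and 34, 35 and 17 in KO (log2 difference 0.43 ± 0.08 (SE), limma adjusted p = 0.00487, and 0.40 without KO replicate 3). With peaks of a −log10 q of 5 or more the Bach2 difference was 0.25 (limma adjusted p = 0.158), and without f/f replicate 3 it was 0.39 (limma adjusted p = 0.0558). Bach2 also lies on chromosome 4, at 32238413 to 32586109 and so outside the stretch described above. Magi2, a scaffold protein of cell junctions, had 10, 8 and 11 of 22 in f/f and 15, 15 and 7 in KO (log2 difference 0.67 ± 0.13 (SE), limma adjusted p = 0.00635, and 0.64 without KO replicate 3). It lies on chromosome 5, whose shares of members and of all regions were higher in KO, as given above. The Magi2 call was lost in 4 of 15 alternatives, with a difference of 0.42 for lists of equal length (limma adjusted p = 0.300), 0.36 for peaks of a −log10 q of 5 or more (limma adjusted p = 0.195), 0.67 without f/f replicate 3 (limma adjusted p = 0.0518) and 0.68 without KO replicate 1 (limma adjusted p = 0.0535). Snx29, a sorting nexin gene, had 15, 20 and 23 of 36 in f/f and 32, 27 and 10 in KO (log2 difference 0.58 ± 0.12 (SE), limma adjusted p = 0.00965, and 0.63 without KO replicate 3). The Snx29 call was lost in 7 of 14 alternatives, among them lists of equal length (0.29, limma adjusted p = 0.131) and the omission of f/f replicate 1, f/f replicate 3, KO replicate 1 or KO replicate 2, with differences of 0.47 to 0.66. Tln2, which encodes the adhesion protein talin 2, had 18, 14 and 19 of 30 in f/f and 23, 25 and 8 in KO (log2 difference 0.47 ± 0.12 (SE), limma adjusted p = 0.0255, and 0.52 without KO replicate 3). The Tln2 call was lost in 9 of 14 alternatives, among them the omission of f/f replicate 2 or 3 or of KO replicate 1 or 2, with differences of 0.32 to 0.47. The difference of Tln2 turned in sign, to -0.09, when lists of equal length were used.

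By list, 4 of the 28 tested signalling genes had fewer regions in KO and none had more. Of the 30 tested genes of neural adhesion and the synapse, 4 had fewer and none had more. The 30 tested matrix genes gave 3 and 1, the 31 transcription genes 1 and 2, and the 15 fragile-site genes 1 and 1, beside 20 and 11 of 242 over all long genes. Without KO replicate 3, the signalling genes gave 3 with fewer and 1 with more, the neural genes 3 and 3, the matrix genes 2 and 1, the transcription genes 1 and 5 and the fragile-site genes 1 and 2, beside 16 and 23 over all long genes. The median log2 difference was between -0.02 and 0.11 in the 5 lists and 0.02 over the 242 genes. The signalling list held 61 f/f-only members, 8.52% of its 716, and 33 of them were in Pde4b, Ror1 and Fgf12. Without these 3 genes the share was 4.61%, beside 4.57% over all members.

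Among genes with any member, 19 had none with a peak in a KO library, and 7 had none with a peak in an f/f library. Each of these genes held at most 5 members. With the 59 genes without any member included, 78 had none in a KO library and 80 had none in KO replicates 1 and 2. At least 1 KO library had a peak at 75.8% of the members and at least 1 f/f library at 85.4%. Over all autosomal regions these shares were 79.5% and 89.2%. Dcdc5 had 2 members, both f/f-only, and Cntnap5a, a neurexin-family gene, had 4, with peaks at 3 and 4 in KO replicates 1 and 2 and at none in the other libraries. These genes were named after their values were seen, and none had enough members to be tested.

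Chromosome 15 differed from the others in how its members were spread over the lists. Its 22 long genes all held members, with a median of 22.5 per gene against 8 elsewhere and a density of 51.5 per Mb against 20.1. Of its 574 members, 45.3% were in 1 list only, against 22.1% elsewhere, and 14.6% were in all 6. They made up 6.12%, 7.42% and 6.40% of the members in f/f and 7.75%, 6.76% and 10.9% in KO, the last in KO replicate 3. There, their median standing was 11.5, against 37.7 for its members elsewhere. Cdh12, a cadherin gene of this chromosome, had peaks at 10, 15 and 12 of its 41 members in f/f and at 8, 9 and 15 in KO, and 1 member was in all 6 lists. KO replicate 3 there matched the highest f/f library. The chromosome was chosen after its values were seen.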

How the data were processed

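The peak lists of 6 ATAC-seq libraries were used, 3 per group, grouped by their labels. Per the labels and the study's methods, Trimmomatic 0.36 served for trimming, BWA 0.7.13-r1126 for alignment (mm10) and MACS2 2.1.2 for peaks, which the authors called library by library with a q-value threshold of 0.05. Each peak has in the deposited lists a fold over the local background (a ratio), a −log10 p, a −log10 q and a score, which is the −log10 q made into a whole number for browsers. They hold no read counts. The read totals per library in the study's supplement were not used here, and no interval for counting error is given.

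Peaks were merged where they shared 1 bp, and gene spans came from RefSeq (GRCm38, the assembly of mm10). The standing of a peak was its percentile by −log10 q in its list. Single values per library were compared by exact permutation tests. The number of deep regions with a peak per gene and library was fitted with limma 3.58.1 (R 4.3.3) with voom weights and Benjamini-Hochberg adjustment over the 726 genes. These were the genes with 10 or more deep regions, counted over all 6 lists of both groups. This replaced the test on reads in peaks that the study's methods describe. The limma step was tested on simulated data. These were independent counts without an upper limit, drawn with known library sizes. Real numbers of regions with a peak cannot exceed the regions of the gene, so that this test does not show how the fit behaves on them. Named were the 12 genes with the most members and the 12 with the highest density, the 10 longest without a member, the 6 with the smallest adjusted p in each direction, up to 4 examples a list and 3 regions of each presence pattern. Genes named outside this rule were chosen after their values were seen, Kalrn and Fgf12 in the comparison of groups among them. The members and the gene lists were chosen with earlier results of these data known. A gene of the marker list is not reported here. Motifs were searched in RefSeq start windows only. Python 3.11.15 was used with pandas 2.3.3 and scipy 1.17.1. The alternatives tried are given with their effect in the closing section.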

Additional observations from a re-analysis of the deposited data

How the results depend on the processing

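The difference in the share of members between KO and f/f changed sign with the same number of peaks per library (0.051 percentage points) and without KO replicate 3, and ranged from -0.834 to 0.0359 when 1 library was left out. With the same number of peaks per library, 7 long genes passed the threshold in place of 31, 99 members were only in f/f, 87 were only in KO and 135 long genes held none. Among genes over 500 kb these numbers were 16, 143, 4 and 24. Long genes past the threshold numbered 17 with a limma trend and 20 with all autosomal regions as library size. Leaving out 1 library gave 9 to 39 long genes past the threshold, namely 18 without f/f replicate 1, 14 without f/f replicate 3, 9 without KO replicate 1 and 11 without KO replicate 2. It gave 285 to 463 f/f-only members, 15 to 256 KO-only members and 59 to 62 long genes without a member. Leaving out a library also changes the number of lists that the f/f-only and KO-only rules ask for. The highest numbers of f/f-only members were 463 without f/f replicate 1, 442 without f/f replicate 2 and 449 without KO replicate 2, and KO-only members numbered 32 without f/f replicate 3 and 256 without KO replicate 3. With a peak required in 2 of 3 libraries of a group and none in the other, 642 members were f/f-only and 257 KO-only. With peaks of a −log10 q of 5 or more, 6 were KO-only. Of 170 alternatives for the 12 genes named by adjusted p, 144 kept the call, 25 kept the direction but not the threshold, and the difference of Tln2 reversed, to -0.0915 with the same number of peaks per library. The call was lost in 7 of 14 alternatives for Snx29, 4 of 15 for Magi2 and 2 each for Ncald, Bach2 and Fggy. Pde4b, Nfia, Lpp, Pde4d, Ror1 and Fam189a1 kept theirs in each alternative that gave a value. Ror1 and Fam189a1, like Fggy, had fewer than 10 deep regions with lists of equal length and were not tested there. The causes were not tested.

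Same-numbered libraries did not deviate together (correlations of deviations over 726 genes of -0.00746, -0.219 and -0.158), so the replicate numbers were not read as pairs. With the replicate block, the limma fit called 16 long genes, 12 with fewer and 4 with more regions, and the difference in share, -0.503, had an exact sign-flip p of 1.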
